A study of Mus musculus and Homo sapiens with 14 samples.

Results

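Splenic plasma cells labelled Irf4 flox/- were compared with splenic plasma cells labelled Irf4 flox/+. The comparison held 4 of the 14 libraries of the series, 2 of each genotype, taken from the mouse count table by their column names. Bone marrow of C57BL/6 donors, either flox/+ (also labelled Irf4het) or flox/- (also labelled Irf4Hom), was given with uMT bone marrow to hosts carrying a different congenic marker. The hosts of both genotypes received tamoxifen on days 1, 2, 7 and 8. Donor plasma cells were sorted from the spleen on day 14. By these names both genotypes carry a floxed allele, beside an intact allele in flox/+ and a null allele in flox/-. The Cre driver, the exons flanked by loxP sites, the sort gate and the number of animals behind a library were not given in the sources used here. No label says that libraries came from separate animals, so p-values measure only the spread between these samples, which may be technical. The count columns of both flox/+ libraries share a name, and the libraries are called a and b.

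IRF4 is a transcription factor of activated B cells and plasma cells. With BLIMP-1, encoded by Prdm1, it turns off the B cell programme and sets up the plasma cell programme. XBP1, made active when the endoplasmic reticulum (ER) sensor IRE1 splices its mRNA, then enlarges the ER in which antibody chains are translocated, folded, glycosylated and exported. Plasma cells lose much of the surface equipment of B cells, such as MHC class II and the chemokine receptors of the follicle.

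The libraries held 25729010 and 21645252 counts with flox/- and 22207366 and 26993510 with flox/+. Genes with at least 1 count numbered 13858 and 14320 in the libraries labelled flox/-, against 12186 and 11403 in those labelled flox/+. Immunoglobulin genes took 56.3% and 52.8% of counts with flox/- and 72.2% and 73.4% with flox/+, so other genes were read more deeply with flox/-. Rn45s, a ribosomal RNA precursor, stood at 605 and 359 CPM (counts per library size after TMM scaling within the 4 libraries) with flox/- and at 6774 and 1405 CPM with flox/+, and its part in the results was not tested. Plasma cell markers were abundant in all 4 libraries. On a scale over the 6 primary cell libraries, their sum with flox/- was 65.6% and 60.7% of that in the bone marrow plasma cell library. With flox/+ it was 143% and 174%. Most of each sum was Jchain, the antibody J chain gene. With flox/- it held 23030 and 21020 CPM of 27800 and 25720, and with flox/+ 51350 and 62710 of 60600 and 73770. In bone marrow plasma cells it held 30700 of 42370, so these percentages follow Jchain in the main. Irf4 itself (Entrez 16364, mm10 chromosome 13, 30749233 to 30766981) did not follow the labels. It stood at 82.7 and 99.8 CPM with flox/- and at 114 and 53.8 CPM with flox/+, which is 0.12 ± 0.43 as log2 fold change (flox/- over flox/+, ± SE, 2 libraries per group). The groups overlapped for Irf4. Counts over the whole gene do not show whether particular exons were lost, so the genotypes rest on the labels, and flox/- and flox/+ below mean the libraries labelled so.

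No gene passed the test after adjustment, and the differences described below are measured directions with their errors. Of 11887 genes tested, edgeR's quasi-likelihood test called 0 higher (0%) and 0 lower (0%) at an adjusted p under 0.05, and the smallest adjusted p was 0.26, shared by 60 genes. Before adjustment, 1026 genes (8.63%) stood higher and 458 (3.85%) lower with flox/- with p under 0.05. These counts moved with single libraries: they were 383 and 217 without flox/- library 1, 668 and 249 without flox/- library 2, and 1903 and 535 without flox/+ library a. DESeq2 called 433 (3.64%) higher and 202 (1.70%) lower. In 3059 genes (25.7%) both flox/- values lay above both flox/+ values, and in 2177 (18.3%) below them. Over all genes the log2 fold change had a median of 0.09 and was above 0 in 54.3%. Many of the highest values came from weakly expressed genes: 433 genes had no count in either flox/+ library, and 4 had none in either flox/- library. In the plot of all genes, Xbp1, Ssr4, Sdc1 and Slpi lie low at high expression, and Il4ra, H2-DMb2 and Ltb lie high.

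**Figure D1:**
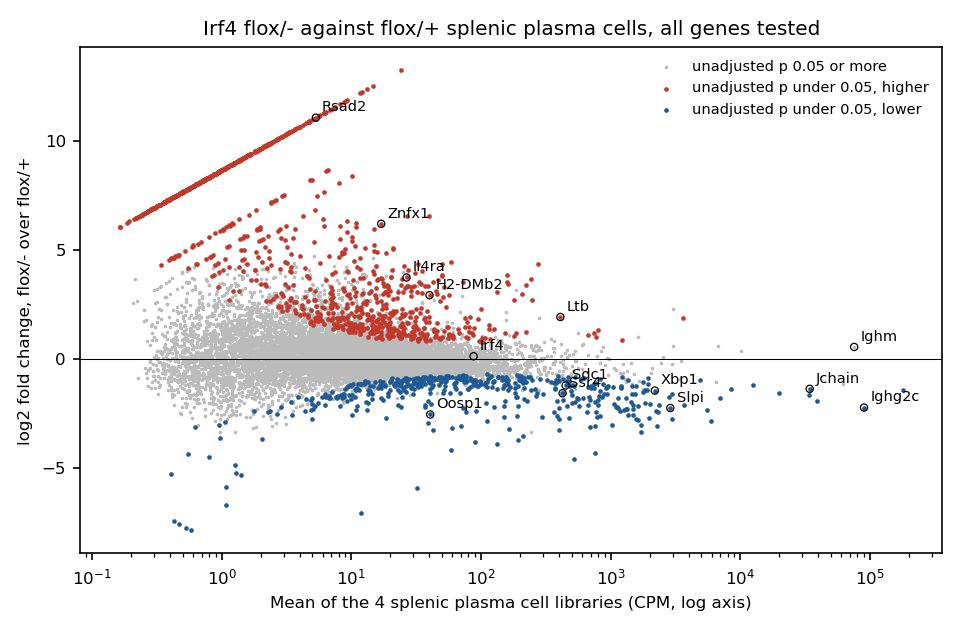
Log2 fold change (libraries labelled flox/- over flox/+) against the mean of the 4 libraries in CPM (log axis) for the 11887 genes tested, 1 point per gene. Red and blue mark an unadjusted edgeR p under 0.05, higher and lower; the straight line of red points at the upper left is made of genes without a count in flox/+, whose fitted values depend on the prior count, and Irf4 lies near 0.

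What a lower value means depends on the scaling. The immunoglobulin share of counts differed by -18.2 percentage points between flox/- and flox/+ (exact two-sided permutation test, p = 0.333, the smallest p that 2 against 2 allows). With libraries scaled to their size alone, the median of all genes moved from 0.09 to 0.98, and lists of secretory genes with a median below 0 took one above 0. List medians are given as measured, and relative to the median of all genes each is lower by 0.09. For ER chaperones this relative value was -0.78 with TMM and with library size alone. A change of scaling moves all genes nearly alike, so this agreement tests nothing. On the authors' log2 FPKM scale the relative value was -0.325.

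The IgM and IgG2c shares of antibody transcripts stood apart between the genotypes. The 4 heavy chain classes with the most counts, IgM, IgG2c, IgG2b and IgA, took most of the heavy chain constant counts in all 4 libraries. Ighm, the constant gene of IgM, held 52.7% and 47.8% of heavy chain constant counts with flox/- and 17.4% and 16.4% with flox/+. These shares do not overlap, and the flox/- shares lie near the 51.4% of the bone marrow plasma cell library. Ighg2c, the IgG2c constant gene of C57BL/6 mice, held 15.0% and 21.2% with flox/- against 43% and 38.8% with flox/+. Ighg2b held 7.59% and 11% against 20.3% and 13.9%. Both IgG genes took lower shares with flox/-, again without overlap (exact permutation p = 0.333 for each of the 3 classes). Igha, the constant gene of IgA, held 23% and 19.4% against 17.5% and 30.1%, and its groups overlapped. Ighg1 and Ighg3 stayed at or under 0.949% in each splenic library. Shares are of counts and are not corrected for gene length.

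Tested as single genes, Ighg2c stood at 29530 and 33490 CPM with flox/- against 160200 and 136700 with flox/+, which is a log2 fold change of -2.24 ± 0.44 (SE; edgeR unadjusted p = 0.002875). Ighm was higher in both flox/- libraries, at 103700 and 75430 CPM against 64940 and 57920, but by less than its spread could show (0.54 ± 0.43; edgeR unadjusted p = 0.2579). The kappa constant gene Igkc stood at 112300 and 80160 CPM against 229900 and 294400 (-1.45 ± 0.48). Light chains of the lambda type took 19.8% and 26.2% of light chain constant counts with flox/- and 23.2% and 22.4% with flox/+, which overlap. Jchain, which joins IgM and IgA into polymers, stood at 19860 and 18270 CPM against 44480 and 54490 (-1.38 ± 0.40). Ighd, the IgD gene that follicular B cells transcribe, went the other way, with 39.4 and 66.1 CPM against 5.91 and 4.71 (3.31 ± 0.43; edgeR unadjusted p = 0.0004103). It was higher still in the bone marrow plasma cell library, at 423 CPM against 45.7 and 76.0 with flox/- on the scale of the 6 primary cell libraries. In flox/- library 1 a single heavy and a single kappa variable gene stood out: Ighv5-12 held 27.0% of its heavy variable counts, against 0.589% to 1.86% in the other three splenic libraries, and Igkv3-7 held 24.7% of its kappa variable counts, against 2.96% to 5.60%. The effective number of heavy variable genes, the exponential of their Shannon entropy, was 30.6 there and 49.7, 52.3 and 50.2 in the other three. Library 2, with no such dominant variable gene, had the IgM share of 47.8% and the IgG2c share of 21.2% given above.

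**Figure D2:**
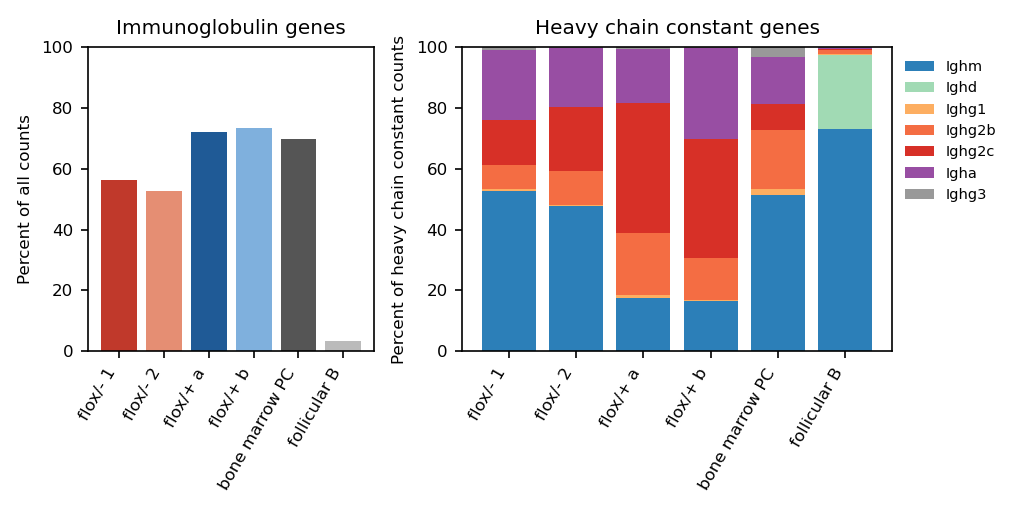
Left, percent of all counts on immunoglobulin genes in each library; right, percent of heavy chain constant counts on each class, 1 bar per library (splenic plasma cells as labelled, bone marrow plasma cells, follicular B cells). IgM (Ighm) takes 47.8% and 52.7% in the flox/- bars and 16.4% and 17.4% in the flox/+ bars.

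Among the transcription factors of plasma cells, some stood lower with flox/- and others did not. Of 19 tested regulators 10 were higher and 9 lower, and their median was 0.03 against 0.09 for all genes. This balance rested on single libraries: 5 were higher and 14 lower without flox/- library 2 (median -0.24), and again 5 and 14 without flox/+ library b (median -0.41). With p under 0.05 before adjustment, 6 were lower and none higher. Xbp1, the regulator of the secretory programme, stood at 1233 and 1106 CPM with flox/- against 2746 and 3677 with flox/+, which is a log2 fold change of -1.46 ± 0.35 (SE; edgeR unadjusted p = 0.007472). Eaf2, a partner of the elongation factor ELL2, stood at 55.9 and 48.6 CPM against 97.4 and 145 (-1.22 ± 0.34). Bmi1, a Polycomb subunit, stood at 19.3 and 25.6 CPM against 48.2 and 45.4 (-1.06 ± 0.33). All 3 kept their groups apart. Creb3l2, an ER-bound transcription factor that is released when secretion is loaded, was lower too, at 18 and 22.8 CPM against 88.4 and 31.8 (-1.56 ± 0.55). Prdm1, named outside the rule, stood at 50.2 and 83.7 CPM against 56.5 and 58.7 (0.22 ± 0.36). Ikzf3, the lymphoid factor Aiolos, also outside the rule, stood at 122 and 151 CPM against 127 and 140 (0.03 ± 0.30). Groups overlapped for both, as they did for Irf4.

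Surface proteins of plasma cells stood lower in most cases. Of 26 tested genes 19 were lower, 8 of them at an unadjusted p under 0.05 and 1 higher, with a median of -0.51 (0.38 with library size alone). Relative to all genes that median was -0.60. Epcam, an adhesion protein, stood at 27.5 and 31.0 CPM with flox/- against 78.1 and 93.2 with flox/+ (-1.55 ± 0.30; edgeR unadjusted p = 0.002744). Sdc1, the heparan sulphate proteoglycan CD138 used to identify plasma cells, stood at 244 and 295 CPM against 632 and 627 (-1.22 ± 0.31). Ly6c2 stood at 296 and 316 CPM against 905 and 566 (-1.27 ± 0.36), and its neighbour in the Ly6 family, Ly6c1, at 3.99 and 3.64 CPM against 16.0 and 13.3 (-1.94 ± 0.48). Reads of these near-identical Ly6c genes may be shared between them. Tnfrsf17, the survival receptor BCMA and outside the rule, stood at 34.1 and 28.3 CPM against 55.3 and 60.5 (-0.89 ± 0.31). For all 5 both flox/- values lay below both flox/+ values.

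**Figure D3:**
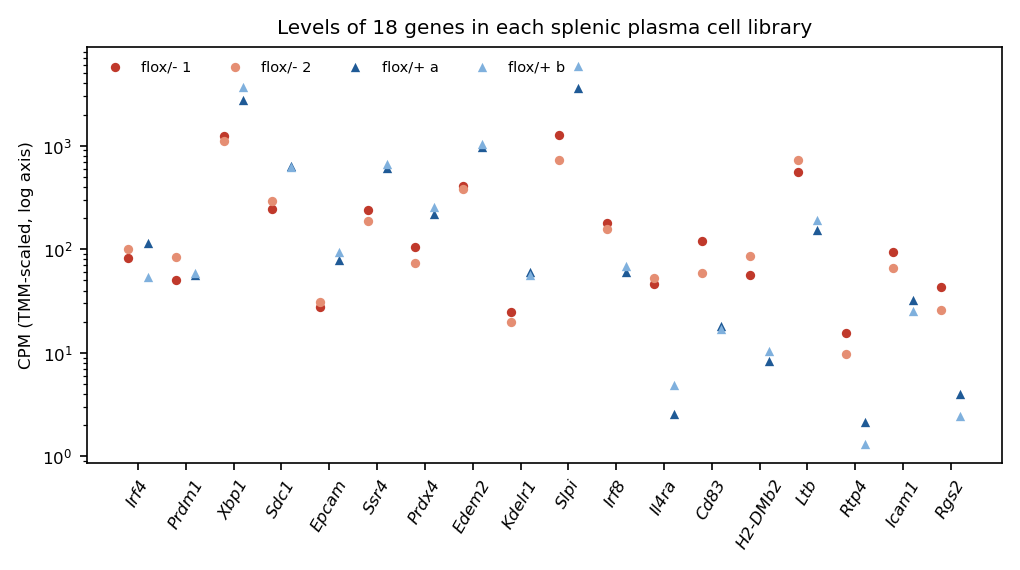
Level of 18 genes in each splenic plasma cell library, in TMM-scaled CPM on a log axis; circles are libraries labelled flox/-, triangles flox/+. Groups overlap for Irf4 and Prdm1, the next 8 genes are lower with flox/- on this scale, and the last 8 are higher.

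The secretory pathway stood lower with flox/- along its whole length, relative to the other genes. The nascent chain is first brought to and through the ER membrane. Of 23 tested genes of signal recognition, translocation and signal peptide removal, 22 were lower, 8 at an unadjusted p under 0.05 and none higher, and in 19 the groups did not overlap. Their median was -0.70 with TMM and 0.19 with library size alone, and -0.78 and -0.79 relative to all genes. On the log2 FPKM scale the relative value was -0.467. Ssr4, a subunit of the translocon-associated complex, stood at 238 and 189 CPM with flox/- against 615 and 661 with flox/+, which is a log2 fold change of -1.58 ± 0.32 (SE; edgeR unadjusted p = 0.003206). The signal peptidase subunit Spcs1 stood at 96.2 and 71.3 CPM against 191 and 233 (-1.34 ± 0.33), and Spcs3 at 120 and 114 CPM against 234 and 264 (-1.09 ± 0.29). The channel subunit Sec61b stood at 45.2 and 32.0 CPM against 85.5 and 84.6 (-1.14 ± 0.32).

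Chaperones and enzymes of disulphide exchange fold the chain inside the ER. Of 33 tested, 30 were lower and 23 without overlap, 11 with an unadjusted p under 0.05, and none was higher with such a p, with a median of -0.70 (0.20 with library size alone). Prdx4, the ER peroxiredoxin, stood at 104 and 73.4 CPM with flox/- against 218 and 254 with flox/+ (-1.41 ± 0.33; edgeR unadjusted p = 0.006625). Fkbp11, a prolyl isomerase, stood at 39.8 and 32.5 CPM against 76.8 and 102 (-1.30 ± 0.32). Dnajb9, a co-chaperone and target of XBP1, stood at 12.4 and 12.3 CPM against 41.8 and 28.4 (-1.51 ± 0.38). Both flox/- values lay below both flox/+ values for all 3, and for the more abundant chaperones below too. Hspa5, the ER chaperone BiP that binds free heavy chains, stood at 1098 and 1229 CPM against 1634 and 2122 (-0.69 ± 0.34). Hsp90b1, the ER member of the HSP90 family, stood at 1110 and 731 CPM against 1472 and 1429 (-0.66 ± 0.36). Both were named outside the rule, and both had values above 0 with library size alone (0.22 and 0.21).

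The promoters of these last 2 genes are shown because they carry the ER stress response element (ERSE), a known site of ATF6 and XBP1. The letters searched were CCAAT and CCACG with 9 bases between (ERSE) and ATTGG and CCACG with 1 base between (ERSE-II), on both strands. The window ran from 250 bases before to 50 after each start in RefSeq (GRCm38.p6). Of 147 tested members of the 5 secretory lists 123 had a promoter in the table, and 11 of these (8.94%) held ERSE and 3 (2.44%) ERSE-II, where 37 of all 27025 genes (0.14%) and 12 (0.04%) did. Among the ER chaperones the share with ERSE was 28.6% (8 of 28). No secretory gene that the naming rule chose and that had a promoter in the table held either element. For this set alone the promoters shown were therefore taken from genes outside the rule. Their edgeR unadjusted p-values were 0.09104 (Hspa5) and 0.1222 (Hsp90b1). A match is a description of the letters, not evidence of binding. The stretches end at or before the start, capitals mark the ERSE, and both run in the gene's direction.
Hspa5 (chr2:34771985-34772083, plus strand): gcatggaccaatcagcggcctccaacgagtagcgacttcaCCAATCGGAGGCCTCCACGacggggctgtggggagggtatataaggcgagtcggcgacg
Hsp90b1 (chr10:86705598-86705694, minus strand): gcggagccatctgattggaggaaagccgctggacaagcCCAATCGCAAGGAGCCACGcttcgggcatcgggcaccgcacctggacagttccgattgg
The 14 secretory genes with either element included 13 with a value below 0, 12 of them without overlap, and their median was -0.70, as in the chaperone list as a whole.

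Most genes of glycosylation, disposal and export were lower as well. Of 32 tested genes of N-linked glycosylation 27 were lower, 13 at an unadjusted p under 0.05 and none higher (median -0.61, and 0.29 with library size alone). Alg2, a mannosyltransferase of the lipid-linked precursor, stood at 26.4 and 30.5 CPM with flox/- against 72.4 and 58.9 with flox/+ (-1.20 ± 0.31). Ostc, a subunit of the oligosaccharyltransferase, stood at 58.2 and 53.2 CPM against 111 and 107 (-0.97 ± 0.28). Among genes that dispose of misfolded proteins, 22 of 23 were lower, 6 at an unadjusted p under 0.05 and none higher (median -0.73, and 0.17 with library size alone). Edem2, which trims mannose from misfolded glycoproteins, stood at 410 and 385 CPM against 967 and 1044 (-1.34 ± 0.31; edgeR unadjusted p = 0.005891), and its relative Edem1 at 523 and 435 CPM against 848 and 1249 (-1.13 ± 0.36). Of 36 genes of coated vesicle traffic between ER and Golgi, 32 were lower, 8 at an unadjusted p under 0.05 and none higher (median -0.59, and 0.30 with library size alone). Kdelr1, the receptor that returns chaperones to the ER, stood at 24.7 and 19.7 CPM against 60.4 and 57.1 (-1.40 ± 0.32; edgeR unadjusted p = 0.00539). The vesicle fusion protein Bet1 stood at 16.0 and 12.8 CPM against 32.7 and 34.7 (-1.23 ± 0.35). The groups of all 6 genes stayed apart.

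Stress sensors and the ATF4 amino acid programme lay closer to the median of all genes. Of 32 tested genes 24 were lower, of which 1 had an unadjusted p under 0.05, and no higher gene had one, with a median of -0.33 (0.59 with library size alone). The median was -0.54 without flox/- library 2 and -0.11 without flox/+ library b. Asns, which makes asparagine, stood at 40.6 and 47.3 CPM with flox/- against 76.0 and 151 with flox/+ (-1.37 ± 0.42). Atf4 itself, outside the rule, stood at 43.02 and 47.8 CPM against 45.3 and 38.9 (0.11 ± 0.30). Ern1, which encodes IRE1 and is outside the rule, stood at 11.01 and 19.2 CPM against 47.4 and 7.31, so that flox/+ libraries a and b differed more from each other than the groups did.

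Respiratory chain subunits also stood lower relative to other genes. In complex I, 34 of 37 tested subunits were lower, 3 at an unadjusted p under 0.05 and none higher (median -0.60, and 0.30 with library size alone). In complexes II to V, 36 of 38 were lower and 1 passed that p (median -0.40, and 0.48 with library size alone). Of all genes tested 3.85% were lower at that p, so these counts are not read as a result. Ndufa4, a small subunit of the chain, stood at 60.7 and 44.4 CPM against 91.7 and 102 (-0.88 ± 0.31). Leaving out a library moved the complex I median between -0.89 and -0.30, the latter without flox/+ library b. For complexes II to V it was -0.62 without flox/- library 1, -0.20 without flox/- library 2 and -0.19 without flox/+ library b. Citric acid cycle enzymes showed no common direction, with 11 of 20 higher, a median of 0.03 (-0.07 without flox/+ library a) and 0 in either direction at an unadjusted p under 0.05. Glycolytic genes and glucose transporters leaned higher, with 15 of 20 (median 0.42, and 3 higher at an unadjusted p under 0.05). Hk2, the hexokinase of growing cells, stood at 7.61 and 8.53 CPM against 2.92 and 1.85 (1.76 ± 0.65).

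**Figure D4:**
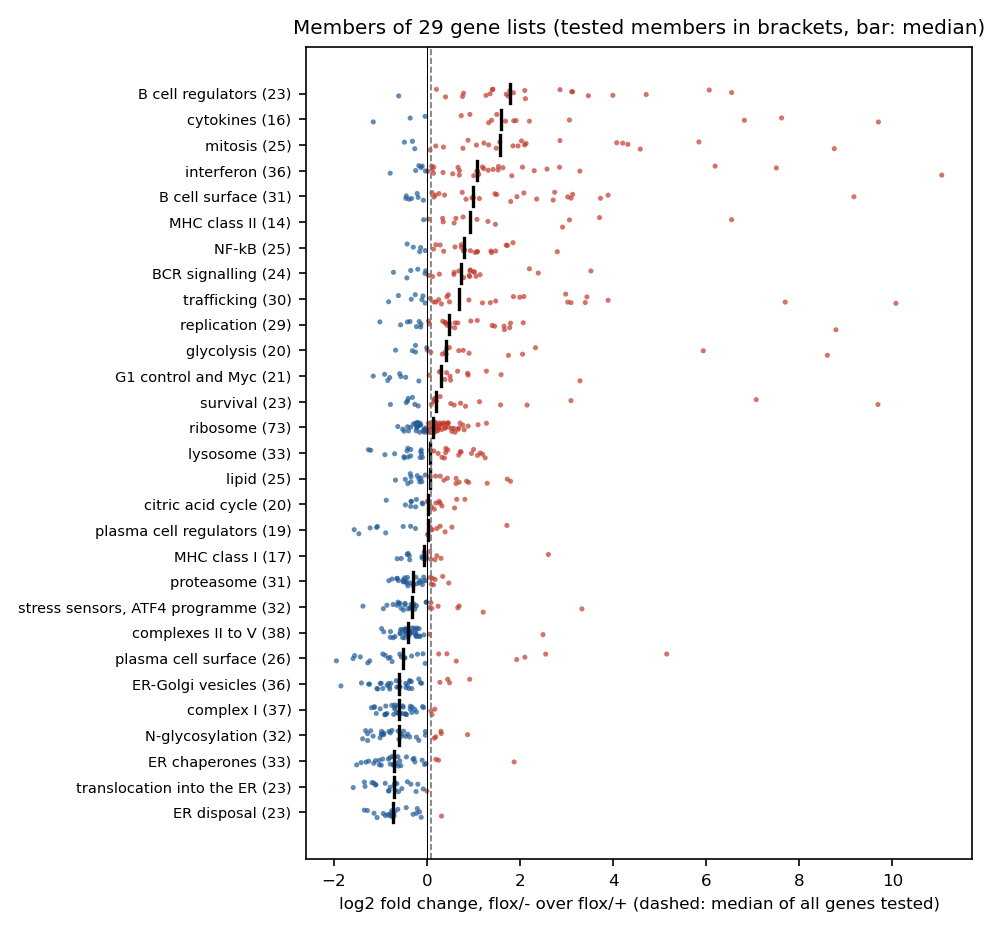
Each point is the log2 fold change (libraries labelled flox/- over flox/+) of 1 tested member of the 29 gene lists; black bars are list medians and the dashed line is the median of all genes tested (0.09). Lists of ER disposal, translocation and chaperones lie lowest and B cell regulators highest; with library size alone the whole axis moves by about the shift of all genes (from 0.09 to 0.98), which puts the secretory medians above 0.

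B cell genes stood higher with flox/-. Of 23 tested B cell transcription regulators 22 were higher, 11 at an unadjusted p under 0.05 and none lower, and in 17 the groups did not overlap. Their median was 1.79. Irf8, an IRF family member of B cells, stood at 178 and 157 CPM with flox/- against 60.7 and 69.7 with flox/+, which is a log2 fold change of 1.36 ± 0.30 (SE; edgeR unadjusted p = 0.004555). Ciita, the master activator of MHC class II genes, stood at 51.8 and 55.1 CPM against 0 and 1.11 (6.55 ± 1.27). Id3, an inhibitor of E proteins, stood at 12.2 and 30.7 CPM against 0.643 and 0. Klf2, which controls lymphocyte exit from tissues, stood at 21.3 and 33.6 CPM against 5.62 and 9.48 (1.86 ± 0.48). These genes were present in both flox/- libraries at levels well above either flox/+ library. Pax5, the B cell identity factor and outside the rule, was near the floor in all of them, at 0.711 and 0.565 CPM against 0.526 and 0. Bach2, a repressor of plasma cell fate and outside the rule, stood at 13.3 and 19 CPM against 3.74 and 0 (3.11 ± 1.66).

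On the surface, 24 of 31 tested B cell genes were higher, 14 at an unadjusted p under 0.05 and none lower, with a median of 1.00. Il4ra, the interleukin-4 receptor chain, stood at 45.9 and 53.3 CPM with flox/- against 2.57 and 4.87 with flox/+, which is a log2 fold change of 3.73 ± 0.47 (SE; edgeR unadjusted p = 0.0003246, adjusted p = 0.26). Cd83, an activation marker, stood at 120 and 59.5 CPM against 18.1 and 16.8 (2.36 ± 0.44). For both, the lower flox/- value was far above the higher flox/+ value. Ccr7, a chemokine receptor that guides lymphocytes to lymph nodes and that naive T cells carry too, stood at 10.98 and 20.3 CPM against 1.46 and 2.17 (3.10 ± 0.62). Ms4a1, which encodes CD20, stood at 42.4 and 67.5 CPM against 47.0 and 44.5 (0.26 ± 0.35), and the receptor subunit Cd79b at 686 and 870 CPM against 803 and 967 (-0.19 ± 0.33). Both were named outside the rule, and their groups overlapped, so the higher values did not extend to every B cell gene.

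Signalling genes below the receptor were higher in 18 of 24 tested cases, 5 at an unadjusted p under 0.05 and 1 lower (median 0.74). Without flox/- library 2 or flox/+ library b this median was 0.33 in each case. Prkcb, a protein kinase C that links the receptor to NF-kB, stood at 76.0 and 49.8 CPM against 19.2 and 8.05 (2.21 ± 0.53). Bank1, a scaffold protein of B cells, stood at 40.5 and 37.4 CPM against 18.1 and 22.7 (0.93 ± 0.33). Its promoter is shown because it held an element bound by IRF proteins, and its p was the smallest among B cell genes that the naming rule chose and that held one before the start. The search was for GGAA and GAAA with 2 bases between (EICE, a site of IRF4 or IRF8 with PU.1) or GAAA and GAAA with 2 bases between (ISRE). The capitals mark an EICE read on the opposite strand.
Bank1 (chr3:136326083-136326172, minus strand): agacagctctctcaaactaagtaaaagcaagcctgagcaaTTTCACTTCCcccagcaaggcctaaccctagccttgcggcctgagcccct
Of 91 tested members of the B cell and MHC class II lists 66 had a promoter in the table. EICE was found in 5 of them (7.58%) and ISRE in 3 (4.55%), against 3.16% and 3.99% of all genes.

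Antigen presentation by MHC class II was higher in 13 of 14 tested genes, 8 at an unadjusted p under 0.05 and none lower, with a median of 0.93. The peptide-loading genes H2-DMb2 and H2-Oa had the smallest p-values. H2-DMb2 stood at 56.3 and 85.4 CPM with flox/- against 8.42 and 10.3 with flox/+ (2.92 ± 0.38; edgeR unadjusted p = 0.0004064). H2-Oa stood at 18.8 and 27.1 CPM against 2.34 and 1.17 (3.71 ± 0.58). The class II alpha chain H2-Aa stood at 1352 and 916 CPM against 362 and 550 (1.32 ± 0.40). The invariant chain Cd74, outside the rule, stood at 11780 and 10870 CPM against 9179 and 8701, a smaller difference of 0.34 ± 0.35. Macrophages and dendritic cells carry class II genes too. Of 19 tested macrophage and monocyte markers 19 were higher with flox/-, 15 without overlap, and their part in the class II values was not tested. MHC class I genes showed no such lean, with 6 of 17 higher, 1 higher at an unadjusted p under 0.05 and none lower, and a median of -0.05 (0.11 without flox/+ library b). The one was their activator Nlrc5, at 21.7 and 32.9 CPM against 7.72 and 1.22 (2.61 ± 0.89).

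Homing, cytokine and NF-kB genes were higher as well. Of 30 tested genes of homing and adhesion 23 were higher, 13 at an unadjusted p under 0.05 and none lower (median 0.70, and 1.12 without flox/- library 1). T cells express many of these genes as well. Rgs2, a brake on G protein signalling, stood at 42.8 and 25.8 CPM against 4.04 and 2.44 (3.41 ± 0.51; edgeR unadjusted p = 0.0007868). Itga6, an integrin chain, stood at 5.32 and 5.46 CPM and had no count with flox/+, at least 64.6-fold higher against a floor of 3 counts over the group. Of 16 tested cytokine genes 13 were higher, 6 at an unadjusted p under 0.05 and none lower (median 1.597). Most of these were weakly expressed. Ltb, the lymphotoxin beta chain of B and T cells, stood at 563 and 733 CPM against 152 and 190 (1.92 ± 0.34; edgeR unadjusted p = 0.00176). Il12a, a subunit of interleukins 12 and 35, stood at 3.16 and 5.14 CPM without a count in flox/+ (at least 49.8-fold higher), and Ebi3, the partner chain in interleukin 35, at 20.5 and 18.1 CPM against 7.37 and 7.31 (1.39 ± 0.40). Of 25 NF-kB subunits and feedback genes 20 were higher, 10 at an unadjusted p under 0.05 and none lower (median 0.79). The kinase subunit Ikbkb stood at 25.9 and 35 CPM against 10.2 and 8.47 (1.71 ± 0.38), and Icam1, an adhesion molecule induced by NF-kB, at 94.9 and 65.7 CPM against 32.3 and 25.2 (1.48 ± 0.35).

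Interferon-induced genes were higher in 30 of 36 tested cases, 10 at an unadjusted p under 0.05 and 1 lower, with a median of 1.08. Znfx1, a helicase of antiviral defence, stood at 33.2 and 33.9 CPM with flox/- against 0.760 and 0.159 with flox/+, which is a log2 fold change of 6.19 ± 0.78 (SE; edgeR unadjusted p = 0.0003305). Oas2, an RNA sensor, stood at 5.07 and 6.99 CPM against 0.0585 and 0, and Rtp4 at 15.5 and 9.75 CPM against 2.16 and 1.32 (2.85 ± 0.63). For these 3 either flox/- library stood well above both flox/+ libraries. Rsad2, the antiviral protein viperin, was mostly in one of them: it stood at 18.9 CPM in library 1 and 2.42 in library 2, with no count in flox/+ (at least 128-fold higher on average). Its promoter is shown because it holds an ISRE on the opposite strand, in capitals.
Rsad2 (chr12:26456523-26456612, minus strand): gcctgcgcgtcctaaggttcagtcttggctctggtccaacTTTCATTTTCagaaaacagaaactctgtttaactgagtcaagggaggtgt
Of 36 tested interferon genes 25 had a promoter in the table, and 13 of these (52.0%) held an ISRE against 3.99% of all genes. All 13 had a value above 0, 9 of them without overlap, with a median of 1.20.

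Genes of mitosis and replication were mostly higher but weakly expressed, and those of G1 control were mixed. Of 25 tested genes of mitosis 22 were higher, 7 at an unadjusted p under 0.05 and none lower (median 1.57). Summed over the list, mitosis genes came to 95.2 and 98.9 CPM with flox/- and 52.9 and 51.2 CPM with flox/+. Kif11, a spindle motor, stood at 2.23 and 2.07 CPM without a count in flox/+ (at least 25.8-fold higher), and Kif23 at 3.62 and 3.17 CPM against 0.234 and 0.159 (4.08 ± 1.01). Mki67, the proliferation marker Ki-67 and outside the rule, did not separate the groups, at 3.96 and 10.4 CPM against 9.30 and 7.84 (-0.26 ± 0.65). Only 1 gene of the mitosis list reached 10 CPM in 2 libraries, with a value of 0.40. Of 29 replication genes 21 were higher, 4 at an unadjusted p under 0.05 and none lower (median 0.48). That median was 0.21 without flox/- library 2 and 0.77 without flox/+ library b, and without flox/+ library a it differed from the median of all genes by 0.007. The mitosis median was 2.73 without flox/+ library b. Mcm5, a helicase subunit, stood at 37.6 and 41.6 CPM against 11.5 and 7.31 (2.07 ± 0.40; edgeR unadjusted p = 0.00257). Of 21 tested genes of G1 control and the Myc network 13 were higher and 8 lower, with a median of 0.30. At an unadjusted p under 0.05, 3 were higher and 1 lower, and 8 and 5 were so without overlap. Among the higher ones, Myc stood at 15.4 and 21.1 CPM against 6.61 and 5.45 (1.6 ± 0.45), and cyclin D2, Ccnd2, at 73.7 and 50.6 CPM against 30.3 and 20.9 (1.28 ± 0.38).

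The remaining lists had medians nearer to that of all genes. BCL2 family and death receptor genes were higher in 16 of 23 tested cases (median 0.21; 3 higher and 0 lower at an unadjusted p under 0.05). Lysosome and autophagy genes were higher in 17 of 33 (median 0.08; 1 higher and 3 lower), among which Map1lc3b, a marker protein of autophagosomes, stood at 141 and 161 CPM against 222 and 341 (-0.90 ± 0.35). Cholesterol and fatty acid genes were higher in 13 of 25 (median 0.07; 2 higher). Ribosomal protein genes were higher in 45 of 73 (median 0.13) and proteasome genes lower in 24 of 31 (median -0.29, and 0.63 with library size alone), with none of either list at an unadjusted p under 0.05. Single libraries moved these medians: the ribosomal one was -0.25 without flox/- library 1 and 0.36 without library 2, the lysosomal one -0.21 without flox/- library 1, the proteasome one -0.13 and the BCL2 family one 0.42 without flox/+ library b, and the cholesterol one 0.28 without flox/+ library a.

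Outside immunoglobulin genes and the lists, the 10 higher genes with the smallest p included T cell genes. Trbc2, a constant gene of the T cell receptor, stood at 17.6 and 41.5 CPM with flox/- against 0.585 and 0.371 with flox/+ (5.94 ± 0.70; edgeR unadjusted p = 0.0002388), and Cd3g, a chain of the same receptor complex, at 20.2 and 33.9 CPM against 2.92 and 4.24 (2.91 ± 0.50). Car2, a carbonic anhydrase, stood at 24.8 and 19.1 CPM against 0.994 and 1.48 (4.14 ± 0.53). Lrmp, an ER membrane protein of lymphocytes, stood at 41.7 and 36.9 CPM against 6.26 and 4.92 (2.81 ± 0.38), and B4galnt1, a ganglioside synthase, at 72.5 and 89.1 CPM against 5.50 and 13.2 (3.11 ± 0.52). The others were Anxa2, Ephx1, Ms4a6b, Gsn and Cpm, with fold changes on the log2 scale from 2.18 to 3.11. Among the 10 lower genes Slpi, a secreted protease inhibitor, was by far the most abundant, at 1261 and 735 CPM against 3633 and 5904 (-2.26 ± 0.47; edgeR unadjusted p = 0.003902). Oosp1, a secreted protein first described in oocytes, stood at 12.7 and 10.9 CPM against 58.5 and 80.3 (-2.55 ± 0.35; edgeR unadjusted p = 0.0004991), and Il13ra1, the interleukin-13 receptor chain that pairs with Il4ra, at 34.8 and 34.7 CPM against 96.9 and 108 (-1.56 ± 0.29). Of these partner chains, then, Il4ra stood higher and Il13ra1 lower with flox/-. Hepacam2, Pafah1b3, Pgam2, Napsa, Ankrd55, Dusp26 and Pon3 made up the rest, with log2 fold changes from -1.93 to -1.37.

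Markers of other cells were higher in the flox/- libraries, in a different pattern in each. The 20 macrophage and monocyte markers summed to 10260 CPM in flox/- library 1, 1558 in library 2, and 1508 and 1427 in flox/+. Outside library 1 most of this sum was Ctsb, a lysosomal protease that plasma cells express too. Without Ctsb, left out after its values were seen, the sums were 6742 and 716 CPM against 534 and 226. All 19 tested markers were higher with flox/-, 13 at an unadjusted p under 0.05 and 15 without overlap, with a median of 3.44, so most of these markers stood above flox/+ in both flox/- libraries and by far the most in library 1. C1qa, a complement gene of macrophages, stood at 556 and 33.1 CPM against 34.9 and 6.30 and overlapped. The 10 erythroid markers summed to 591 and 33.1 CPM against 32.4 and 3.39. T cell and NK cell markers were highest in library 2. The 18 T cell markers summed to 195 and 475 CPM with flox/- against 80.7 and 109, and the 10 NK cell markers to 34.9 and 84.5 CPM against 9.42 and 13.6. Much of the flox/+ sums came from Cd28 and Prf1. On the scale of the 6 primary cell libraries, Cd28 stood at 38.5 and 40.8 CPM against 58.9 and 81.2, of flox/+ sums of 93.2 and 125.7. The bone marrow plasma cell library held Cd28 at 70.1 CPM. Prf1 stood at 14.0 and 31.2 CPM against 9.59 and 15.2, of flox/+ sums of 10.9 and 15.6. Of the T cell markers 11 and 9 had no count in the flox/+ libraries, among them Cd6 in both, and Cd3e stood at 7.27 and 32.2 CPM against 0 and 0.794. Of the NK cell markers 5 and 1 were at 0 with flox/-, and 7 and 8 with flox/+, where Nkg7 and Eomes had no count. The 12 naive B cell markers summed to 395 and 614 CPM with flox/- against 196 and 194, and all 12 were higher, 8 at an unadjusted p under 0.05. On a scale over the 6 primary cell libraries this sum was 7.90% and 12.2% of that in the follicular B cell library with flox/-, and 3.89% and 3.85% with flox/+. The bone marrow plasma cell library held 641.9 CPM of these markers, between the flox/- values of 458.8 and 706.5 CPM. Flox/+ held 225.9 and 223.2 CPM. Ighd made up 423 CPM of the bone marrow sum. Germinal centre B cell markers overlapped, at 88.9 and 140.0 CPM against 92.9 and 180.1, and the 9 dendritic cell markers summed to 35.2 and 5.71 CPM against 4.15 and 2.59. Neutrophil, platelet and stromal markers summed to at most 41.8 CPM in any splenic library.

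**Figure D5:**
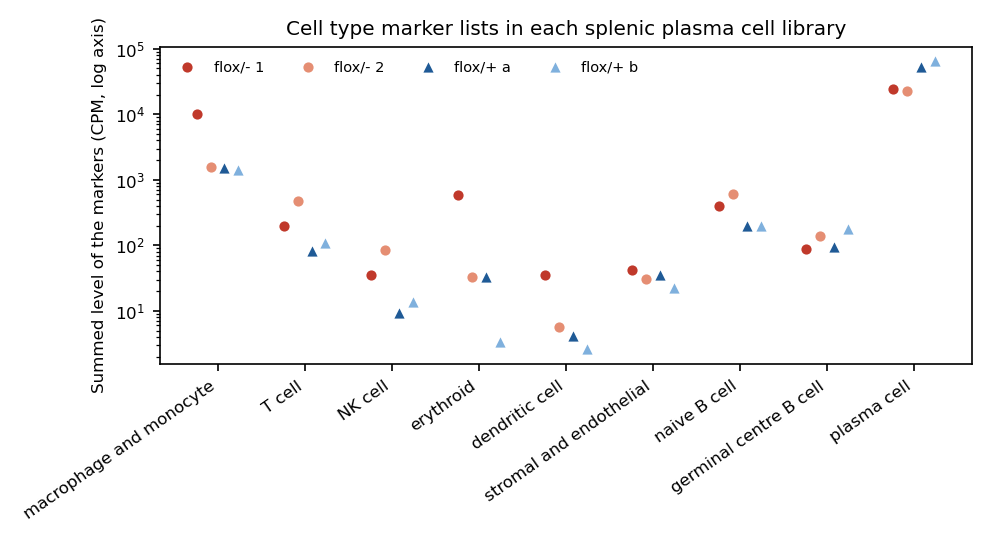
Summed level of 9 cell type marker lists in each splenic plasma cell library, in CPM on a log axis; circles are libraries labelled flox/-, triangles flox/+. Flox/- library 1 stands apart in macrophage, erythroid and dendritic cell markers, and library 2 is highest in T, NK and naive B cell markers.

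The part of such cells in the results above was not tested. In sorted bulk RNA, more cells of another type and more of its RNA per cell cannot be told apart. Without flox/- library 1, which held most of the macrophage markers, the medians were 0.74 for MHC class II, 0.80 for interferon genes and -0.83 for translocation. Without flox/- library 2, in which T and naive B cell markers were highest, they were 1.13, 1.19 and -0.68, and that of B cell regulators was 1.47. Fcer2a, Cr2 and Ighd, genes of mature B cells, stood on average at 2.43%, 1.81% and 4.65% of their follicular B cell level in the flox/- libraries. Il4ra, Ciita and Bach2 stood at 17.7%, 16.3% and 26.3% of it. What lies behind these different shares was not tested.

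The 2 reference libraries give a direction between a B cell and a plasma cell, but each held markers of other cells too. Erythroid markers summed to 263.2 CPM in the follicular B cell library and 6.16 CPM in the bone marrow plasma cell library. Neutrophil markers summed to 9.79 and 588.9 CPM there (scale of the 6 primary cell libraries). The part of such genes in the values below was not tested. Of 6837 genes tested outside immunoglobulin and at 10 CPM or more in either reference, 327 were at least 8-fold higher in the bone marrow plasma cell library than in the follicular B cell library. Of these 24.2% were higher with flox/-, and their median was -0.63. Of the 187 genes at least 8-fold higher in follicular B cells, 179 (95.7%) were higher with flox/-, with a median of 2.00, and 100 were so with p under 0.05 before adjustment. A gene could pass the count filter through the flox/- libraries alone, which raises this share by an amount that was not tested. Genes within 2-fold between the references (4108) had a median of 0.00 and were higher in 49.5%. Across the 6837 genes, the splenic log2 fold change and the reference difference had Pearson's r of -0.42 and Spearman's rho of -0.45, given as a description across genes, which are not independent replicates, with 1 library per reference. On the scale of the 6 primary cell libraries, Xbp1 stood at 103.5 CPM in follicular B cells, at 1430 and 1272 CPM with flox/-, at 3170 and 4231 CPM with flox/+ and at 3831 CPM in bone marrow plasma cells. The flox/- values thus lay between the follicular B cell and the bone marrow plasma cell value, as did those of flox/+ library a.

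Set beside the mouse plasmacytoma line MPC-11 with a guide RNA against Irf4 over empty vector, no gene's splenic effect differed at an adjusted p under 0.05 (edgeR interaction, 12993 genes tested, 0 called, 0%; smallest adjusted p = 0.138), while 807 (6.21%) did at an unadjusted p under 0.05 and DESeq2 called 119 greater and 63 less in splenic cells. The comparisons share no library. They also differ in time and control. MPC-11 cells were sorted on day 3 after deletion, and splenic cells on day 14 of a course with tamoxifen from day 1. The splenic control was flox/+, and the MPC-11 control was an empty vector. The part of these differences in the values below was not tested. Over genes at a mean of 1 CPM or more in MPC-11, secretory medians lay below 0 in both systems, at -0.70 in splenic cells and -0.55 in MPC-11 for translocation, and at -0.70 and -0.53 for ER chaperones. Sdc1 had a log2 fold change of -1.23 ± 0.30 in splenic cells and -1.02 ± 0.29 in MPC-11 (SE), and Ltb of 1.91 ± 0.39 and 1.52 ± 0.39. The mitosis and replication lists lay on opposite sides. Of 26 mitosis genes 23 were higher with flox/- in splenic cells (median 1.71). With the guide in MPC-11, 24 of 26 were lower (median -0.70). For replication genes, 21 of 29 were higher in splenic cells and 29 of 29 lower in MPC-11 (medians 0.49 and -0.77). Of these 55 genes 13 and 10 had a greater splenic effect at an unadjusted interaction p under 0.05 and none a lesser one. Over all 9837 genes at 1 CPM or more in MPC-11, 403 had a greater and 205 a lesser splenic effect at that p. Some of the mitosis and replication genes, such as Kif11 and Cdc6, had no count in flox/+, so the size of their interaction depends on the prior count. Mcm5 had an interaction of 2.93 ± 0.54 (edgeR unadjusted p = 0.000634, adjusted p = 0.217). Surface proteins of plasma cells were lower in 17 of 20 in splenic cells and higher in 14 of 20 in MPC-11 (medians -0.76 and 0.23; 6 with a lesser splenic effect at an unadjusted interaction p under 0.05).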

How the data were processed

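RNA was sequenced from sorted cells, and the deposited tables were analysed, not the reads. Per the labels, RNA was taken with RNeasy Plus Mini columns and libraries with Nextera reagents. Per the submitters' processing notes, Subread 1.6.0, featureCounts, limma and the build mm10 were used; roles, annotation and strand setting were not given in the sources used here, so overlapping and antisense genes cannot be told apart. The authors deposited counts, whole reads per gene, for 27179 mouse entries; the 958 without a symbol (at most 0.0823% of a splenic library) were left out. The authors also deposited log2 FPKM values per library for 14704 genes, used as an alternative; their quartiles are close to equal between libraries, some highly expressed genes share 1 value across libraries, and no label says why.

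Groups follow the labels. The 4 splenic libraries were fitted with edgeR 4.0.16 (R 4.3.3): filterByExpr with a minimum count of 10, TMM, quasi-likelihood F test, Benjamini-Hochberg adjustment, threshold 0.05. The SE is the size of the log2 fold change divided by the root of F. DESeq2 1.42.0 and limma 3.58.1 served as alternatives, and the fits were tested on simulated data. Libraries of a group differed by far more than sampling noise (chi-square per degree of freedom 191 and 174). CPM are TMM-scaled within the 4 libraries, or over 6 primary or 8 libraries where references or MPC-11 are set beside them. Floors are 3 counts over a group and cover counting error only. Immunoglobulin shares exclude Jchain.

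Named are Irf4; up to 4 members per list with the smallest unadjusted p; the 10 higher and 10 lower genes outside the lists with the smallest p among those with counts in all 4 libraries, groups apart and a mean of at least 10 CPM; immunoglobulin constant genes with at least 0.1% of counts; others are said to be outside the rule or appear as markers. Some genes that the rule names are not reported here. The comparison, the 29 gene lists and the 11 marker lists were chosen with earlier results of these data known.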

Additional observations from a re-analysis of the deposited data

How the results depend on the processing

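edgeR called 0 genes in either direction under RLE factors, library size alone, no low-count filter, a filter of 10 CPM in 2 libraries, immunoglobulin genes left out and every library left out in turn, and limma-voom did likewise. DESeq2 called 433 higher and 202 lower, and a fit over all 10 mouse libraries 5 higher and 0 lower. The authors' log2 FPKM gave 0 calls without and 310 higher and 67 lower with a replicate block. Deviations from the group mean of flox/- and flox/+ library 1 on this scale had a correlation of -0.03 over 8903 genes. This value shows no shared shift and cannot tell whether the samples were paired. Genes at an unadjusted p under 0.05 numbered 3038 higher and 74 lower with library size alone, 386 higher with the 10 CPM filter, and 1090 and 781 lower on the log2 FPKM scale without and with the block. Leaving out each library gave 383 to 1903 higher and 217 to 535 lower. For these count changes the cause was not tested, except that the 10 CPM filter tests fewer genes.

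With library size alone, which moves all genes up, medians turned to 0.196 for ER chaperones, 0.171 for disposal, 0.19 for translocation, 0.29 for glycosylation, 0.297 for vesicles and for complex I, 0.587 for stress sensors, 0.476 for complexes II to V and 0.631 for the proteasome. The same scaling turned Cd79b to 0.729, Ern1 to 0.02, Hsp90b1 to 0.214, Hspa5 to 0.219, Ighg3 to 0.221, Map1lc3b to 0.019 and Mki67 to 0.681. Relative to all genes, medians on the log2 FPKM scale without a block were -0.325 for ER chaperones, -0.369 for disposal and -0.467 for translocation. They were -0.434 for glycosylation, -0.316 for vesicles and -0.393 for complex I. Complexes II to V had -0.181, stress sensors -0.093 and the proteasome -0.072. Leaving out a library in turn gave ranges that cross 0 for Irf4 (-0.33 to 0.758), Atf4 (-0.002 to 0.221), Ern1 (-1.655 to 1.044), Ighg3 (-2.054 to 0.135), Ikzf3 (-0.143 to 0.174), Mki67 (-1.118 to 0.282), Prdm1 (-0.203 to 0.545) and Ms4a1 (-0.117 to 0.565). Cd74 and Jchain showed no difference in log2 FPKM, since each has 1 shared value in all 4 splenic libraries there. The other named genes, of 109, kept their direction under each alternative in which they were tested.

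The difference from MPC-11 had 119 genes greater and 63 less by DESeq2, 6 and 2 with no filter, and 0 to 1 less when a library was left out. Over constant region genes only, the immunoglobulin share differed by -10.67 percentage points, as the set of genes is smaller. Depth limits the genes without a flox/+ count, and 2 libraries per group limit every test.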

Other observations

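When the spread was estimated over all 10 mouse libraries, 5 genes had an adjusted p under 0.05 (edgeR), all higher with flox/-; they were named after their values were seen. Besides Znfx1, described above, they had no count in either flox/+ library. Cyth3, an exchange factor for ARF proteins, stood at 8.91 and 13.7 CPM with flox/-, at least 136-fold higher against a floor of 3 counts over the flox/+ group. Tsc22d1, a leucine zipper protein, stood at 4.58 and 10.13 CPM (at least 88.2-fold higher). Clstn1, a calsyntenin, stood at 4.39 and 8.47 CPM (at least 77.1-fold higher). Gpsm2, which orients the mitotic spindle, stood at 4.61 and 4.70 CPM (at least 55.9-fold higher). All 4 were found in both flox/- libraries, as were higher marker sums of T and NK cells, whose part in these values was not tested. The bone marrow plasma cell library held all 4 as well. On the scale of the primary cell libraries, Cyth3 stood there at 10.49 CPM, against 10.33 and 15.77 with flox/-. Tsc22d1 stood at 4.325 CPM against 5.31 and 11.66, and Clstn1 at 5.374 CPM against 5.095 and 9.743. Gpsm2 stood at 2.425 CPM against 5.346 and 5.413. What lies behind the missing counts in flox/+ was not tested.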
